A study of Mus musculus with 4 samples.

Results

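The genes described here are 10 genes of neuroepithelial and radial progenitor cells that belong to neither the Sox nor the Notch families. They are Nes, Vim, Fabp7, Slc1a3, Ttyh1, Prom1, Msi1, Hmga2, Rfx4 and Zbtb16. They were chosen by symbol, and a gene was represented by its brightest probe set, taken over the mean of all 4 arrays. All 10 were on the array, among 12740 genes tested, and each had a signal above the filter value of 63.5 on all 4 arrays. The study compared GFP-sorted cells of the E10.5 mouse neural tube, taken between the limb levels, from embryos of a mixed B6SJLF1 and ICR background. In the Atoh1BAC-GFP line, a bacterial artificial chromosome drives GFP in Atoh1-derived cells, which form dorsal interneuron 1 (dI1). In the dNeurog1-GFP line, a Neurog1 enhancer drives GFP dorsally and marks dorsal interneuron 2 (dI2). Both groups thus carry a GFP transgene, each has 2 biological replicates on 1 array apiece, and the sources used here give no embryo numbers. The labels do not say outright that the sorted fraction on the arrays is the GFP-positive one, and it is read so here.

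Radial progenitors are the dividing cells of the early neural tube, with a foot on the ventricle and a process that reaches the outer surface. They carry nestin and vimentin filaments, a glutamate transporter and a brain fatty acid-binding protein, products that are lost as their daughters leave the cycle and become neurons. The early-born neurons of the dorsal spinal cord arise around the stage studied, and a sort by a proneural reporter can hold both progenitors and young neurons.

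The replicate 1 arrays had been deposited at a trimmed mean of 250 and the replicate 2 arrays at 500, so all signals below were brought to a trimmed mean of 500. Differences were taken on log2(signal + 32) with dNeurog1-GFP subtracted from Atoh1-GFP, and the added constant shrinks the differences of dim genes. Adjusted p are limma's with Benjamini-Hochberg adjustment over all genes, and the threshold is 0.05. Because the replicate number is also a scaling batch that holds 1 array of each population, results are given for the model without a block, for the model with a replicate block, and within each replicate number. The sorted populations carried their markers: Atoh1 had signals of 21412 and 19675 on the Atoh1-GFP arrays, against 1772 and 1861 on the dNeurog1-GFP arrays. With the block, all 5 dI1 markers were called higher on the Atoh1-GFP arrays and 4 of 6 dI2 markers were called lower.

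Upstream sequences of the genes are shown because several members were lower together in Atoh1-GFP cells while the filament genes were not called. RefSeq promoters (GRCm38.p6) matched 8 of the 10 genes, with 10 windows of 250 bases before an annotated start. Msi1 and Zbtb16 were not matched. Printed 5′ to 3′ are the windows of the 3 genes that passed the threshold with the block, Fabp7, Ttyh1 and Rfx4 (its upstream start), and of Nes and Vim. Capitals mark ACAANG on either strand, with any base at N, which is a looser pattern than the core bound by Sox factors.
Fabp7, chr10:57784673-57784922, plus strand: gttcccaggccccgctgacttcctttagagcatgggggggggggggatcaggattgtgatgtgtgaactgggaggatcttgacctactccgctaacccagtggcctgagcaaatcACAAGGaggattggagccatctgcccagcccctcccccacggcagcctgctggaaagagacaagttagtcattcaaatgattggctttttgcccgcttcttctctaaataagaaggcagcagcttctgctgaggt
Ttyh1, chr7:4119280-4119529, plus strand: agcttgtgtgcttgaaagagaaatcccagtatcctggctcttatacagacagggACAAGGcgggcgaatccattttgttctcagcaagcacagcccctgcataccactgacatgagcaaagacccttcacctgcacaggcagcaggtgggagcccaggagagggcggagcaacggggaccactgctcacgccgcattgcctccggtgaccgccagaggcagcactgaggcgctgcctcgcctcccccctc
Rfx4, chr10:84755798-84756047, plus strand: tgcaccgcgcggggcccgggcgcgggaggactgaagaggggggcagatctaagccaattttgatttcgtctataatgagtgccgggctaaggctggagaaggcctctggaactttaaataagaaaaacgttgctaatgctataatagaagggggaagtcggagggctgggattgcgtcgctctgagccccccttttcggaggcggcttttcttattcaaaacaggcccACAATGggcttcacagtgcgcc
Nes, chr3:87970843-87971092, plus strand: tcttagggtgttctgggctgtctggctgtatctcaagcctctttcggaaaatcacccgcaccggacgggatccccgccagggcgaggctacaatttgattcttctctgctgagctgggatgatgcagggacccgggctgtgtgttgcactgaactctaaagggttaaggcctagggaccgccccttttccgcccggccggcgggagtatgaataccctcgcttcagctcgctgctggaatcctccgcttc
Vim, chr2:13574061-13574310, plus strand: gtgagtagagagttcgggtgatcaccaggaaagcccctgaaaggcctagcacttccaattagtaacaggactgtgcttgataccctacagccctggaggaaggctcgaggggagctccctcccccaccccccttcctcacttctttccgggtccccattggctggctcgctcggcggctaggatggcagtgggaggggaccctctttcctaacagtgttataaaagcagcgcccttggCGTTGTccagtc

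The ACAANG letters lay 135 bases before the start in Fabp7, 196 in Ttyh1, 22 in Rfx4 and 12 in Vim, and were not found in the Nes window. They occurred in 8 of the 10 windows, or 7 of the 8 genes, and in 36.3% of the 32851 windows of all RefSeq promoters. The letters, in this loose form, were thus present both in the 3 called genes and in Vim. On the strand of the match, the base at N was G in Fabp7 and Ttyh1, T in Rfx4 and C in Vim. Searched in the same way on both strands, CAGCTG (an E-box; 13% of all windows), TTCCCAC (the RBPJ core; 5.42%), ATGCAAAT (the POU octamer; 1.6%) and GTTGCC (part of the X-box read by Rfx factors; 10.4%) were in 0 of the 10 windows. GGGCGG (a GC box; 32.7%) was in 5 and CCAAT (33.8%) in 5 of the 10 windows. TATAAA (12.4%) was in 2, at 32 bases before the Vim start and 161 before that of Slc1a3. These matches describe letters in a short window only.

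Among the 10 genes, 6 were lower in the Atoh1-GFP sort in both replicate numbers, 1 was higher in both and 3 had opposite signs. Over all genes tested, 33.7% were lower and 33.3% higher within both. Within replicate 2, Prom1, 1 of the 6, differed by only -0.0051, and Nes, the 1 higher, by only 0.02. The signals of the groups did not overlap in 5 genes, Fabp7, Ttyh1, Slc1a3, Hmga2 and Rfx4, and each of these was lower in Atoh1-GFP cells. Over all genes, 18.8% were lower and 15.9% higher without overlap. The median difference of the 10 genes was -0.49 (-0.36 within replicate 1 and -0.30 within replicate 2), against 0.0058 over all genes tested.

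**Figure D1:**
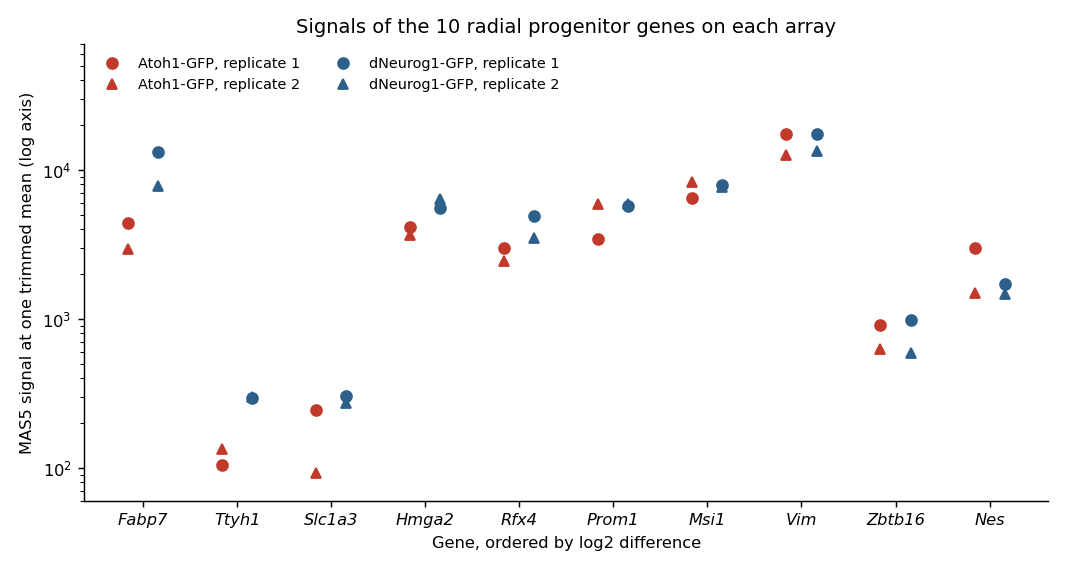
MAS5 signals of the 10 genes at a trimmed mean of 500, on a log axis, with 1 point for each array, coloured by population and shaped by replicate number; genes are ordered by difference. The dNeurog1-GFP points of Fabp7, Ttyh1, Slc1a3, Hmga2 and Rfx4 lie above both Atoh1-GFP points, and the populations overlap in the other genes.

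Without the block, limma called 0 of the 10 genes, where 28 genes passed (0.22% of all tested, with 0.0942% lower and 0.126% higher in Atoh1-GFP cells). At an unadjusted p under 0.05, 4 of the 10 passed, Fabp7, Ttyh1, Hmga2 and Rfx4, against 8.59% of all genes. With the block, Fabp7, Ttyh1 and Rfx4 passed, all lower in Atoh1-GFP cells, and 7 did not. That is 3 of 10, beside 6.51% of all genes called with the block, 3.73% lower and 2.78% higher. In bulk samples, fewer progenitor cells in a sort and less RNA of a gene per cell cannot be told apart, and this holds for each difference below.

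The membrane and metabolic genes of radial cells held the largest differences. Fabp7 (probe set 1450779_at), the brain fatty acid-binding protein and a classical radial glia product, had signals of 4411 and 2929 on the Atoh1-GFP arrays, against 13102 and 7773 on the dNeurog1-GFP arrays. Every dNeurog1-GFP value exceeded both Atoh1-GFP values, by 2.97-fold within replicate 1 and 2.65-fold within replicate 2. The log2 difference was -1.48, with -1.56 and -1.40 within replicates 1 and 2. Its adjusted p was 0.16 without the block (SE 0.31) and 0.0038 with it (SE 0.12). The difference ranked 87 from the lowest of 12740 genes. Both populations had a lower Fabp7 signal on the replicate 2 array than on the replicate 1 array, by log2 differences of -0.59 and -0.75. Fabp7 has a single probe set, so no second one could be compared.

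Ttyh1 (probe set 1422695_at), a tweety-family membrane protein of neural stem cells, had signals of 104 and 134 on the Atoh1-GFP arrays, against 294 and 298 on the dNeurog1-GFP arrays. The groups were well apart and each pair of replicates was close. The gene was dim, with a mean level at percentile 25.25 of the genes tested. Its Atoh1-GFP replicate 1 signal was below the median of that array, 138. The median was 115 on the dNeurog1-GFP replicate 1 array, and 76.0 and 75.4 on the Atoh1-GFP and dNeurog1-GFP replicate 2 arrays. The difference was -1.13 (-1.26 within replicate 1 and -0.99 within replicate 2), with adjusted p = 0.30 without the block (SE 0.32) and 0.041 with it (SE 0.22). The call with the block ended when no filter was applied and when all kept probe sets were averaged, with adjusted p from 0.0042 to 0.11 over the 8 blocked settings. Of its other probe sets, 1 had 128 and 88.1 against 262 and 184, without overlap of the groups (-0.87 and -0.85 within replicates 1 and 2). Another had 117 and 52.9 against 215 and 56.3, a difference of -0.73 within replicate 1 and -0.06 within replicate 2. The dimmest was below the filter and gave 0.20 and 0.15.

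Slc1a3 (probe set 1443749_x_at) encodes the glutamate transporter GLAST, a marker of radial glia. It had signals of 243 and 92.8 on the Atoh1-GFP arrays, against 301 and 273 on the dNeurog1-GFP arrays. Its mean level was likewise low, at percentile 26.96. Its groups did not overlap, but the Atoh1-GFP replicate 1 array came near the dNeurog1-GFP arrays, and the difference of -0.78 was split into -0.28 and -1.29. It missed the threshold in both models (adjusted p = 0.76 unblocked and 0.19 blocked). The brightest Slc1a3 probe set is of the kind whose probes may also match other transcripts. The other 2 kept probe sets gave -0.73 and -0.37, and -1.03 and -0.82, within replicates 1 and 2. All 3 kept probe sets were thus lower in the Atoh1-GFP sort in both replicate numbers, although none was called. The size of the Slc1a3 difference rested on the Atoh1-GFP arrays: it was -1.35 without replicate 1 and -0.21 without replicate 2 of that population. Below the filter, 3 dimmer probe sets had opposite signs within the replicates (0.99 and -0.28, -0.51 and 0.04, and 0.05 and -0.32).

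Prom1 (probe set 1419700_a_at) encodes prominin 1, a protein of the apical membrane protrusions of neuroepithelial cells. Its signal was 3440 and 5913 on the Atoh1-GFP arrays, against 5713 and 5934 on the dNeurog1-GFP arrays. Only the Atoh1-GFP replicate 1 array stood apart, and the other 3 were within 5713 to 5934. The difference of -0.37 came from replicate 1 (-0.73) and not from replicate 2 (-0.0051), with adjusted p = 0.30 with the block. The 95% interval with the block ran from -0.81 to 0.08. Leaving out the Atoh1-GFP replicate 1 array turned the difference to 0.02.

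The intermediate filament genes were not called in either model, and their populations overlapped. Nes (probe set 1449022_at), nestin, had signals of 2980 and 1485 on the Atoh1-GFP arrays, against 1720 and 1459 on the dNeurog1-GFP arrays. The Atoh1-GFP replicate 1 array again stood apart, here above the other 3 and not below them as for Prom1. Nes was the only one of the 10 genes with positive differences in both replicate numbers, 0.78 and 0.02, and it was not called (0.40 together, adjusted p = 0.97 unblocked and 0.28 blocked). Without the Atoh1-GFP replicate 1 array its difference was -0.09. A dimmer kept Nes probe set went the other way within replicate 1 (413 against 619, -0.55) and gave 0.02 within replicate 2 (78.1 against 76.9). The dimmest was below the filter (-1.09 and 0.27).

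Vim (probe set 1450641_at), vimentin, is the filament protein of neuroepithelium and also of mesenchyme and endothelium. It had signals of 17376 and 12527 on the Atoh1-GFP arrays, against 17324 and 13452 on the dNeurog1-GFP arrays. The populations overlapped, and the replicate numbers differed more than the populations did. The difference was -0.05 (0.0043 and -0.10 within replicates 1 and 2), with adjusted p = 0.85 and a 95% interval from -0.36 to 0.26 with the block. In folds, this interval runs from 0.84 to 1.28 for dNeurog1-GFP over Atoh1-GFP cells. The other 2 Vim probe sets gave differences of 0.04 and -0.07. The interval of Vim with the block lies apart from that of Fabp7, which ran from -1.77 to -1.20. The difference between the genes was not itself tested.

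**Figure D2:**
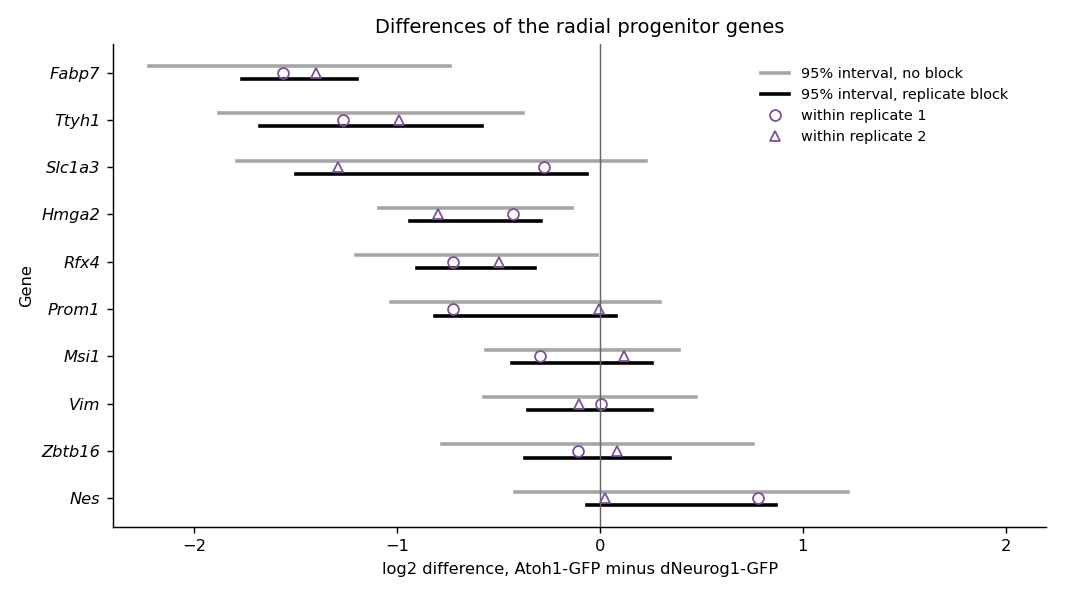
Log2 differences of the 10 genes, Atoh1-GFP minus dNeurog1-GFP, within replicate 1 (circles) and replicate 2 (triangles), with limma's 95% intervals from the model without a block (grey) and with the replicate block (black). Both intervals of Fabp7, Ttyh1, Hmga2 and Rfx4 lie below 0, and those of Prom1, Msi1, Vim, Zbtb16 and Nes cover 0; of Slc1a3 only the grey one does.

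Of the RNA-binding and chromatin genes, Msi1 (probe set 1452287_at) encodes musashi 1, a translational regulator of neural stem cells. Its signal was 6431 and 8344 on the Atoh1-GFP arrays, against 7895 and 7670 on the dNeurog1-GFP arrays. The Atoh1-GFP arrays lay on either side of the dNeurog1-GFP arrays. The difference was -0.09 (-0.29 and 0.12 within replicates 1 and 2), with adjusted p = 0.76 and a 95% interval from -0.43 to 0.26 with the block. A dimmer kept probe set gave -0.04 and -0.36, and 1 below the filter gave -1.58 and 0.18.

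Hmga2 (probe set 1450780_s_at), an architectural chromatin protein of early neural stem cells, had signals of 4144 and 3629 on the Atoh1-GFP arrays, against 5588 and 6327 on the dNeurog1-GFP arrays. Both dNeurog1-GFP values exceeded both Atoh1-GFP values, by 1.35-fold and 1.74-fold within replicates 1 and 2. The difference of -0.61 (-0.43 and -0.80) came close to the threshold in the blocked model without passing it (adjusted p = 0.053, SE 0.13), and the unblocked value was 0.40. It passed in 5 of the 8 settings with the block, so it is a borderline value. In the fit over all 27022 kept probe sets with the block, this probe set had adjusted p = 0.023. A second Hmga2 probe set, with signals of 3369 and 2087 against 5168 and 2989, was also called there (adjusted p = 0.024). The third had differences of -0.15 and -1.48 and was not called. The dimmest was below the filter and gave 0.70 and -0.09.

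The set holds 2 transcription factors. Rfx4 (probe set 1436931_at), a winged-helix factor of neural progenitors that is needed for cilia and for patterning of the neural tube, had signals of 2965 and 2458 on the Atoh1-GFP arrays, against 4915 and 3478 on the dNeurog1-GFP arrays. The dNeurog1-GFP values were higher by 1.66-fold and 1.42-fold within replicates 1 and 2, without overlap of the groups. The difference was -0.61 (-0.72 and -0.50), with adjusted p = 0.57 without the block (SE 0.25) and 0.040 with it (SE 0.12). It passed in 7 of the 8 settings with the block and missed the threshold with no filter (adjusted p = 0.076). Without the dNeurog1-GFP replicate 1 array the difference was -0.36. The other Rfx4 probe set was below the filter (0.71 and -0.11).

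Zbtb16 (probe set 1439163_at), the zinc finger factor PLZF of early neural progenitors, had signals of 908 and 626 on the Atoh1-GFP arrays, against 981 and 589 on the dNeurog1-GFP arrays. Replicate 1 was higher than replicate 2 in both populations, and the populations overlapped. The difference was -0.01 (-0.11 and 0.08), with adjusted p = 0.97 and a 95% interval from -0.37 to 0.34 with the block. It was 0.0094 after quantile normalization. A second kept probe set gave -0.22 and -0.38 and was not called (adjusted p = 0.34 in limma's blocked fit over probe sets). The dimmest kept one had opposite signs, -0.49 and 0.17, and was not called either (adjusted p = 0.83).

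**Figure D3:**
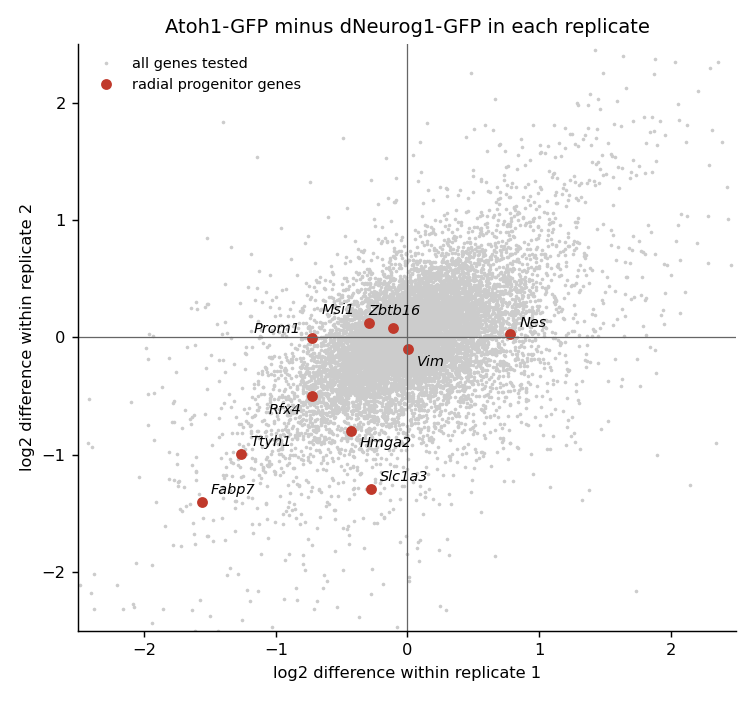
Log2 differences of all 12740 genes (grey) and of the 10 radial progenitor genes (red) within replicate 1, on the horizontal axis, and within replicate 2, on the vertical axis; 57 genes beyond 2.5 on either axis are not drawn. Fabp7 and Ttyh1 lie far down the diagonal, Slc1a3 differed mainly within replicate 2, and Prom1 and Nes mainly within replicate 1.

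The brightest probe sets could be set beside 12 other kept probe sets of the same genes. Of these 12, 9 were lower in the Atoh1-GFP sort in both replicate numbers, 0 were higher within both and 3 had opposite signs. In the fit over probe sets with the block, 1 of the 12 was called, the second Hmga2 probe set. The matching shares over all 27022 kept probe sets are not given here, so these counts have no background beside them. The remaining 8 of the 30 probe sets of these genes were below the filter and were not tested.

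Other radial progenitor genes, from a list of 20 that includes transporters, enzymes, receptors and adhesion molecules, also went different ways. With the block 9 of 19 tested were called lower in the Atoh1-GFP sort, 1 was called higher and 9 did not pass, while 0 passed without it. Over all genes tested, 3.73% were called lower and 2.78% higher with the block. The list median of -0.34 was made up of -0.16 within replicate 1 and -0.74 within replicate 2. The gene called higher was Slc1a2, which is counted again among the paralogues below. Fabp5 is also on both lists, and Cdh2 is also on the list of apical junction genes. Ednrb, the endothelin B receptor, had the largest difference, with signals of 1146 and 562 against 5728 and 3467 (-2.42, adjusted p = 0.0015 with the block). Fgfbp3, a secreted carrier of fibroblast growth factors, differed by -1.91 (adjusted p = 0.0066), and the homeodomain factor Pax6 by -1.61 (adjusted p = 0.0046). N-cadherin, Cdh2, the adhesion molecule of the apical junctions, had 8138 and 7889 against 7677 and 7552 and was not called (0.07, adjusted p = 0.75 with the block). Glutamine synthetase, Glul, was not called either (0.31, adjusted p = 0.25).

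Among paralogues of the 10 genes, the calls with the block were toward Atoh1-GFP cells. Of 19 tested, 0 were called lower and 2 higher, beside 3.73% and 2.78% of all genes tested, and the median was 0.02. Slc1a2, the glutamate transporter GLT-1 and a relative of Slc1a3, had signals of 3932 and 2489 on the Atoh1-GFP arrays, against 1402 and 901 on the dNeurog1-GFP arrays. Its difference was 1.45 (1.47 and 1.43 within replicates 1 and 2, adjusted p = 0.0038 with the block and 0.18 without), opposite in sign to that of Slc1a3. Zbtb20, a zinc finger factor with the same domain types as Zbtb16, had 1080 and 490 against 349 and 271 (1.16, adjusted p = 0.039 with the block). The epidermal fatty acid-binding protein gene Fabp5 had 15832 and 20383 against 15140 and 16981 and was not called (0.16, adjusted p = 0.52). Msi2 had a difference of -0.08 (adjusted p = 0.74). Whether paralogues differ from one another was not tested.

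Lists of genes that work beside Hmga2, Prom1 and Rfx4 held 0 genes called by limma in either model. The 6 early-stage RNA-binding and chromatin genes had a median of 0.01, and 0 had an unadjusted p under 0.05 with the block. Over all 12740 genes tested, 2864 had such a p. Igf2bp1, an mRNA-binding protein of early progenitors, differed by 0.02, and Lin28a, which blocks let-7 maturation, by 0.16 (0.60 and -0.28 within replicates 1 and 2). The 11 apical junction and polarity genes had a median of 0.05, and 2 had an unadjusted p under 0.05 with the block. The tight-junction scaffold Tjp1 had 2987 and 2591 against 3916 and 3306 (-0.37, adjusted p = 0.12 with the block). The other was Numbl, a relative of the cell-fate adaptor Numb, which had 439 and 551 against 323 and 263, in the opposite direction (0.69, 0.41 and 0.98 within replicates 1 and 2, adjusted p = 0.12 with the block). The 10 cilium genes had a median of -0.15, and likewise 2 had such an unadjusted p. Dync2h1, the motor of retrograde ciliary transport, differed by -0.42 (adjusted p = 0.18 with the block) and the transport subunit Ift88 by -0.07 (0.83).

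**Figure D4:**
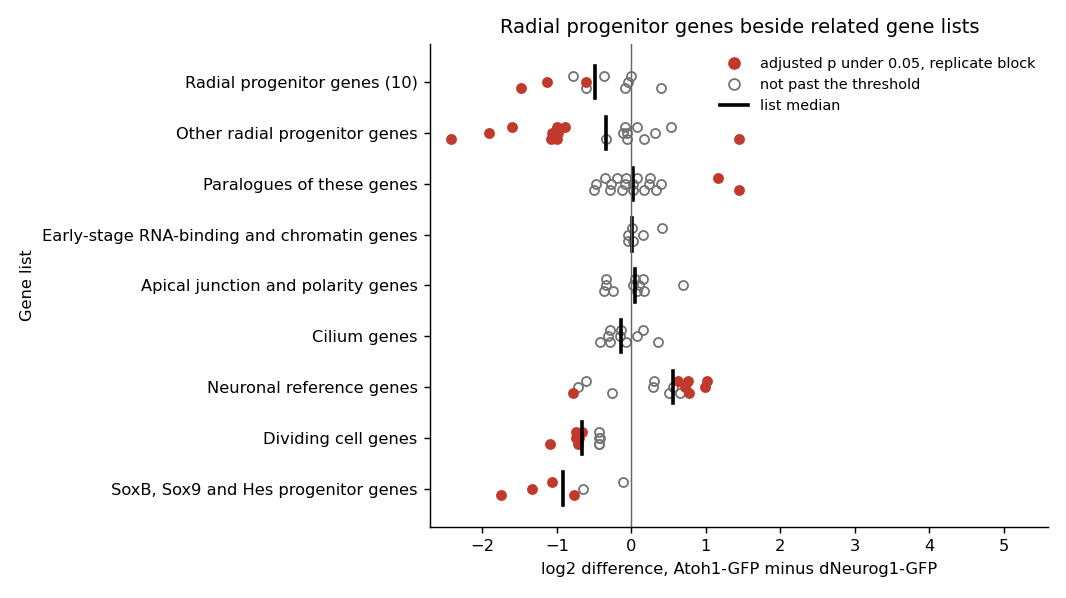
Log2 differences, Atoh1-GFP minus dNeurog1-GFP, of the 10 radial progenitor genes and of related gene lists, with 1 point for each gene and a bar at each median; filled points passed an adjusted p of 0.05 with the replicate block. The medians are -0.49 for the 10 genes, -0.34 for other radial progenitor genes, 0.02 for their paralogues and 0.56 for neuronal genes.

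Markers of dividing cells and of neurons also differed between the populations in the model with the block. Without it, limma called 0 of the dividing cell, neuronal, and SoxB, Sox9 and Hes genes, and 7 of 11, 10 of 15 and 3 of 6 had an unadjusted p under 0.05. Over all genes tested, 8.59% had such a p without the block, and 18.8% were lower without overlap of the groups. The block gave calls for 3.73% lower and 2.78% higher. With the block, 6 of 11 dividing cell genes were lower and 0 higher (median -0.66), and the groups did not overlap in any of the 11. Their summed signal was 52514 and 56008 on the Atoh1-GFP arrays, against 81348 and 76945 on the dNeurog1-GFP arrays. With the block, 6 of 15 neuronal genes were higher and 1 lower (median 0.56), with summed signals of 92090 and 89325 against 60049 and 76210. Of the 6 called higher, Tubb3 (1.01) and Dcx (0.99) had the largest differences, with limma's adjusted p = 0.011 and 0.040 with the block. The neuronal list did not go 1 way. The neurofilament gene Nefm was the one called lower, with 4933 and 4254 against 7808 and 8016 (-0.78, adjusted p = 0.023 with the block), while Nefl (-0.71), the growth cone gene Gap43 (-0.61) and Mapt (-0.26) also had negative differences and were not called. Among the SoxB, Sox9 and Hes genes, 4 of 6 were lower with the block, while Sox2, a general progenitor factor, was not called (-0.11, adjusted p = 0.64). The part that the share of dividing cells or neurons plays in the values of Fabp7, Ttyh1 and Rfx4 was not tested.

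Markers of other cell types had uneven signals. That 0 genes of these lists were listed at a signal of 0 does not show that each was present. Olig2, for example, had 3.82 and 7.44 on the Atoh1-GFP arrays, against 73.6 and 443 on the dNeurog1-GFP arrays. Of 8 mesenchyme markers limma called 0 in either model, with 0 at an unadjusted p under 0.05 with the block, and their summed signal was 6304 and 4310 on the Atoh1-GFP arrays, against 2957 and 6590 on the dNeurog1-GFP arrays. Endothelium markers (0 of 5 called, 4 at an unadjusted p under 0.05 with the block) summed to 1343 and 504 against 498 and 389, with the highest sum on the Atoh1-GFP replicate 1 array, the one with the high Nes and low Prom1 signal. That array also had the highest median signal, 138, against 115, 76.0 and 75.4 on the others. The 5 endothelium markers were dim, with mean levels at percentiles from 1.69 (Pecam1) to 30.4 (Kdr) of the genes tested. The part of mesenchyme, of endothelium or of the higher median in the Nes, Vim and Prom1 values was not tested. Ventral neural tube markers summed to 594 and 507 against 572 and 2167, with the highest sum on the dNeurog1-GFP replicate 2 array. Within replicate 1, Olig2 (-1.56), Mnx1 (-0.74) and Nkx6-1 (-0.69) were below 0, while Nkx2-2 (0.27), Foxa2 (1.36) and Shh (0.98) were above it. Within replicate 2, Olig2 (-3.59), Mnx1 (-3.64), Nkx6-1 (-2.24) and Nkx2-2 (-0.82) were below 0. Foxa2 (0.0093) and Shh (0.41) were above 0 there. All 6 were dim, with mean levels at percentiles from 0.85 (Foxa2) to 32.4 (Mnx1) of the genes tested. Of these 6 markers limma called 1 with the block, Olig2, lower (adjusted p = 0.038), and 0 without it (0.37 for Olig2). Their part in the values of the 10 genes was not tested. Of the glial and neural crest markers 0 of 3 were called in either model, with 1 at an unadjusted p under 0.05 in each. That 1 was Foxd3, also a dI2 marker, with 133 and 94.3 against 210 and 415, lower in Atoh1-GFP cells without overlap (-1.19, adjusted p = 0.10 with the block). Sox10, the crest factor of a lineage that also makes Fabp7, had 218 and 116 against 142 and 101. Blood markers (0 of 2 called in either model) summed to 12996 and 14048 against 2466 and 9090, and macrophage markers (0 of 2) to 460 and 437 against 370 and 218. Roof plate markers (0 of 2) summed to 4544 and 2492 against 4835 and 2448. At an unadjusted p under 0.05 with the block, 2 blood, 1 macrophage and 0 roof plate markers passed, beside 2864 of all 12740 genes tested. Heart muscle markers summed to 606 and 1697 against 177 and 295, and limma called 1 of 4, Myl7, higher with the block (adjusted p = 0.039) and 0 without it (0.25 for Myl7).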

How the data were processed

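RNA of sorted cells was measured on 4 mouse expression arrays, 2 for each population. The deposited table holds linear signal intensities made with MAS5, per the submitters' processing notes. The MAS5 version and scaling settings were not given in the sources used here. Trimmed means (2% left out at each end) were 250 and 500 on the replicate 1 and replicate 2 arrays, and each array was multiplied to reach 500. The 64 control probe sets were left out. Probe sets at or above the 40th percentile of the mean signal (63.5) were kept, 27022 of 45037. Of the 45037, 34945 had 1 symbol in the platform annotation, 932 several and 9160 none, and RefSeq identifiers matched 34741 and changed 0 symbols. The brightest kept probe set stood for a gene. On log2(signal + 32), limma 3.58.1 in R 4.3.3 (lmFit and eBayes with an intensity trend) was fitted without a block (2 residual degrees of freedom) and with a replicate block (1), so p-values rest largely on the spread shared across genes. The replicates are called biological, with no further detail, and the number of arrays limits the precision. The fit was tested on simulated data with 12740 genes, 100 of them changed by 1 log2 unit and 100 by 2. Without the block, a mean of 0 and 6.8 of these were called over 10 simulations. With the block the means were 49 and 95.6, and 6.53% of the calls were false. A gene not called without the block may thus still differ.

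Genes named were all 10 members with every probe set, and from each other list at most 4 called genes by size and 2 that were not called. The population and contamination markers are given as lists. Nefl, Gap43, Mapt and the single ventral, crest and heart muscle markers were named after their values were seen. The members and lists were chosen with earlier results of these data known. Alternatives covered scaling, pseudocount, filter, probe set rule, the block and leaving out each array, and the blocked fit with 6 of these settings was added after the data were seen.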

Additional observations from a re-analysis of the deposited data

How the results depend on the processing

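Without the block, the number of genes called moved from 28 (12 lower, 16 higher in Atoh1-GFP cells) to 13 on the signals as deposited (12 lower, 1 higher), 18 at a common 75th percentile (11 lower, 7 higher), 14 with no filter, 18 with the filter at the 60th percentile and 14 with probe sets averaged. It was 153 to 380 when 1 array was left out, and the cause was not tested. With the replicate block it was 829, and 1169 with the block on deposited signals, 1200 at a 75th percentile, 1726 after quantile normalization, 898 and 860 with pseudocounts of 16 and 64, 361 with no filter and 700 with probe sets averaged. Of the 10 genes, 0 were called without the block and 3 with the replicate block. The count was 4 with the block on deposited signals, at a 75th percentile and with either pseudocount, 5 after quantile normalization, 1 with no filter and 2 with probe sets averaged. Leaving out 1 array gave 0 to 1. Such a fit assumes that the lone array varies like the other pair, so passing there says nothing about stability. Fabp7 passed in 8 of 8 settings with the block.

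The median difference of the 10 genes was -0.50 to -0.37 when 1 array was left out and -0.51 to -0.46 under the other settings. Fabp7, Ttyh1, Slc1a3, Hmga2 and Rfx4 kept a negative difference under all 20 alternatives. Their groups did not overlap, so leaving out 1 array could not change the sign. The block does not change a difference either, so the sign under those settings says nothing about stability. With 1 array left out, Fabp7 ran from -1.86 to -1.11, Ttyh1 from -1.27 to -0.98, Slc1a3 from -1.35 to -0.21, Hmga2 from -0.71 to -0.52, Rfx4 from -0.86 to -0.36, Nes ran from -0.091 to 0.90, Vim from -0.28 to 0.19, Msi1 from -0.27 to 0.10, Prom1 from -0.75 to 0.022 and Zbtb16 from -0.36 to 0.34. Zbtb16 was also 0.0094 after quantile normalization, with and without the block. Across genes, themselves not replicates, the change from replicate 1 to replicate 2 in the 2 populations correlated at r = 0.66, and the labels do not say that equal numbers share a litter or day. With 2 arrays a group, small differences such as those of Vim, Msi1 and Zbtb16 are bounded only by their intervals.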
